A study of Mus musculus with 46 samples.

Results

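The genes of NF-kB were followed here in sorted microglia, the macrophages that live in brain tissue: the 5 subunits Rel, Rela, Relb, Nfkb1 and Nfkb2, the inhibitors Nfkbia, Nfkbib, Nfkbie and Nfkbiz, and the feedback regulator Tnfaip3. The members were the rows carrying these 10 symbols, of 24824 gene symbols in all, and each of the 4 deposited tables holds all 10. NF-kB is a family of dimeric transcription factors that are held in the cytoplasm by IkB proteins until a signal, such as bacterial lipopolysaccharide (LPS) binding its Toll-like receptor, has the IkB proteins degraded. Several of the family's own genes are known targets of the factor, so that the pathway both amplifies and limits itself. In microglia this route is best known for the cytokine response to LPS.

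The study measured RNA by sequencing in 46 libraries of sorted microglia, from mice in which the microRNA-processing enzyme Dicer was deleted in cells expressing Cx3cr1, and from their controls. Dicer-deficient adults were Cx3cr1CreER:Dicerfl/- and adult controls Cx3cr1CreER:Dicer+/-, so both carry the Cre transgene and 1 Dicer allele that the labels write as minus, at 10 to 12 weeks of age. These genotypes are those of the sample labels; the series text writes the control genotype for both untreated adult groups and gives 1 library fewer for the LPS-treated Dicer-deficient total brain than the samples hold. Untreated adults gave 3 Dicer-deficient and 4 control libraries. Total brain gave 4 Dicer-deficient and 4 control libraries 6 h after 1 mg/kg LPS given intraperitoneally, and 3 Dicer-deficient and 3 control libraries at steady state, some labels of which also read PBS. Hippocampus gave 2 Dicer-deficient and 2 control libraries after the same LPS treatment, and 3 Dicer-deficient and 2 control libraries at steady state. Control microglia of Dicerfl/fl mice came from embryonic day 14 (E14, 4 libraries), birth (P0, 5 libraries) and 6 to 8 weeks of age (5 libraries). Newborn Dicer-deficient microglia, Cx3cr1Cre:Dicerfl/fl, gave 2 libraries, which were set against the 3 P0 controls that the labels assign to them. Cells were gated as CD45int CD11b+ F4/80+ Ly6C- Ly6G-, except at E14, where the gate was CD45+ and F4/80hi. No label says whether libraries of a group came from separate animals, so each p-value measures the spread between libraries, which may be technical.

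Values are signal, read counts that the authors scaled by 1 factor per library, and the recovered depth was 898451 to 4573063 reads per library. Tests are limma on log2(value + 1), fitted across all genes of a table. A member is said to rise, fall or change where its Benjamini-Hochberg adjusted p was under 0.05, and log2 fold changes are given with their standard error. The 10 microglia markers examined were above 0 in every library. Dicer1 itself overlapped between genotypes in every setting: its signal was 117 to 151 in Dicer-deficient and 97.6 to 153 in control untreated adults, 75.7 to 155 in Dicer-deficient and 83.8 to 119.7 in control total brain after LPS, and 74.2 to 108 in Dicer-deficient and 101 to 132 in control total brain at steady state. In hippocampus it was 80.5 to 93.5 in Dicer-deficient and 60.4 to 110.4 in control libraries after LPS and at most 60.8 in Dicer-deficient and 43.0 to 92.6 in control libraries at steady state, and in newborns 195 and 85.4 in Dicer-deficient and 57.8 to 88.7 in control libraries. Reads outside the deleted part would still count toward that gene, so this does not check the genotype. In bulk samples fewer cells of a type and less RNA per cell cannot be told apart. Some libraries stood apart. Control replicate 33 of the LPS-treated total brain had 6074 for the homeostatic marker P2ry12, against 974 to 1476 in the other 3 LPS-treated controls and 9103 to 11450 in steady-state controls. All 3 Dicer-deficient hippocampal libraries at steady state held both Xist and the Y-linked Ddx3y above 100, and their 12 monocyte and neutrophil markers summed to 7609 to 7747, against 521 to 2501 in the 2 steady-state controls. Hippocampal control replicate 1 at steady state had 688 for Cx3cr1, against 7139 in replicate 2. It also had Xist at 1429 and Ddx3y at 2.74, against 3.91 and 334 in replicate 2. After LPS, the 2 Dicer-deficient and 2 control hippocampal libraries had Ddx3y above 100 but not Xist. In Dicer-deficient hippocampus LPS and this difference in Xist therefore cannot be told apart. In total brain, Dicer-deficient steady-state replicate 11b had 2487 for Cx3cr1, against 5330.2 and 5575 in the others, and it and LPS-treated Dicer-deficient replicate 38 were the 2 libraries of 14 with Xist above 100. In the stage table Cx3cr1 was 490.4, 1188 and 940.3 in adult control replicates 2, 4 and 5, against 7454 and 8687 in replicates 1 and 3, and 647 in newborn Dicer-deficient replicate 1, against 3129 in replicate 2 and 3744 to 5801 in the P0 controls. Leaving out LPS-treated replicate 38 changed no call among the members, and the other libraries are taken up beside the results. The 3 hippocampal ones form a whole group and cannot be left out.

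Of the 10 members, 7 had a promoter window in RefSeq (GRCm38.p6), and Relb, Nfkb1 and Nfkbiz had none. A match to the kappaB consensus, the 10-base site that NF-kB dimers bind, was searched on both strands from 250 bases before to 50 after each start site. It was found for 5 of the 7 members, Rel, Nfkb2, Nfkbia, Nfkbie and Tnfaip3, and not for Rela and Nfkbib, against 5.14% of 27025 genes. Overlapping matches were counted as 1 promoter with a match. Shown are the 150 bases before the start site, on the transcribed strand, of the 4 members with a match that rose after LPS in Dicer-deficient total brain; capitals mark the matches.
Nfkb2, chr19:46304587-46304736, plus strand: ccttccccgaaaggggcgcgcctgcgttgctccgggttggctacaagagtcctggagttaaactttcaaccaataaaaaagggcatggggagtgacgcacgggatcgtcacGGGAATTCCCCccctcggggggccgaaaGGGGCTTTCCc
Nfkbia, chr12:55492648-55492797, minus strand: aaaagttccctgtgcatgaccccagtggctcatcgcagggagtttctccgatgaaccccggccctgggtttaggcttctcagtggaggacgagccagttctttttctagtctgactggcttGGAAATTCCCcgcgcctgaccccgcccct
Nfkbie, chr17:45555550-45555699, plus strand: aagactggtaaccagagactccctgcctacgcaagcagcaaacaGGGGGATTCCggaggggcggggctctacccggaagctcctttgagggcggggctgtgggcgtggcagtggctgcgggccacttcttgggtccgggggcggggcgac
Tnfaip3, chr10:19015411-19015560, minus strand: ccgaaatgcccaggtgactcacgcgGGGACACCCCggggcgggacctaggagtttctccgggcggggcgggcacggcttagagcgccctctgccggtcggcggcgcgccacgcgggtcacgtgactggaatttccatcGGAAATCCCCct
The Nfkb2 window holds a pair of overlapping matches 39 and 38 bases before the start site and another 11 bases before it. In Nfkbia the match starts 29 bases before the start site, in Nfkbie 106, and in Tnfaip3 there is one at 125 and one at 12. A match describes the letters and is no evidence that the factor binds there.

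In total brain, LPS changed 9 of the 10 members in Dicer-deficient microglia (8 rose, 1 fell), where 24.9% of all 13423 genes tested were called. In control microglia it changed 4 of 10 (3 rose, 1 fell), where 14.1% were called. LPS-treated and steady-state libraries did not overlap for 9 members in Dicer-deficient and 5 in control microglia, beside 32.4% and 21.2% of all genes tested. The median log2 fold change of the 10 members was 1.88 in Dicer-deficient microglia, beside -0.04 over all genes. In control microglia it was 0.51, beside -0.05. The test of the difference between these LPS effects, the interaction, called Relb, Nfkb2 and Nfkbie, 3 of the 23 genes it called in all (0.171% of those tested), each with the larger increase in Dicer-deficient microglia.

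Nfkb2 encodes the precursor of the alternative-pathway subunit. After LPS it stood at 977, 921, 884 and 1014 in the Dicer-deficient libraries and at 328, 282, 325 and 158 in the control libraries. At steady state it stood at 136, 143 and 121 in Dicer-deficient libraries and at 133, 188 and 202 in controls. The LPS-treated Dicer-deficient libraries were all above every other library of the table, while the lowest LPS-treated control, replicate 33, lay within the steady-state range. Nfkb2 rose by 2.82 ± 0.23 after LPS in Dicer-deficient microglia (limma, adjusted p = 1.3e-06). Its change in controls was 0.61 ± 0.23 (adjusted p = 0.0842), and without replicate 33 it rose there too, by 0.85 (limma, adjusted p = 0.00119). The interaction was 2.22 ± 0.32 (limma, adjusted p = 0.00487) and was called in each of the 14 fits that left out 1 library.

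Relb encodes the subunit that pairs with the Nfkb2 product. It had 428, 589, 487 and 497 after LPS in Dicer-deficient libraries, against 136, 134, 176 and 169 in LPS-treated controls. Steady-state values were 45.3, 136 and 67.6 in Dicer-deficient libraries and 109.7, 96.7 and 129.8 in controls. Every LPS-treated control was above every steady-state control, but by a small margin: the change was 0.45 ± 0.27 (adjusted p = 0.289), whereas Relb rose by 2.72 ± 0.27 in Dicer-deficient microglia (limma, adjusted p = 4.48e-06). The interaction was 2.26 ± 0.38 (limma, adjusted p = 0.0155). It was not called without Dicer-deficient LPS replicate 36 (2.18) or without steady-state control replicate 9 (2.15), with an adjusted p of up to 0.0756 over the 14 fits.

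Nfkbie encodes IkB-epsilon, a cytoplasmic inhibitor. Its values after LPS were 273, 197, 186 and 175 in Dicer-deficient libraries and 106, 112, 124 and 156 in controls. At steady state they were 63.6, 79.4 and 76.1 in Dicer-deficient libraries and 117, 156 and 139 in controls. The order of the genotypes was thus opposite at steady state and after LPS, with no overlap in either. The genotypes also did not overlap for 22.8% of all genes tested at steady state and 15% after LPS. Nfkbie rose by 1.48 ± 0.21 after LPS in Dicer-deficient microglia (limma, adjusted p = 8e-05), and its value in controls was -0.15 ± 0.21 (adjusted p = 0.683). The interaction, 1.63 ± 0.29 (limma, adjusted p = 0.0277), was called in 7 of 14 fits that left out 1 library, with log2 differences of 1.49 to 1.74. It was lost without LPS-treated Dicer-deficient replicate 36 or 37, LPS-treated control replicate 17 or 31, steady-state Dicer-deficient replicate 5 or steady-state control replicate 8 or 9, with an adjusted p of up to 0.098. DESeq2 called Rela, Nfkbiz and Tnfaip3 as well, 6 members in all.

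**Figure D1:**
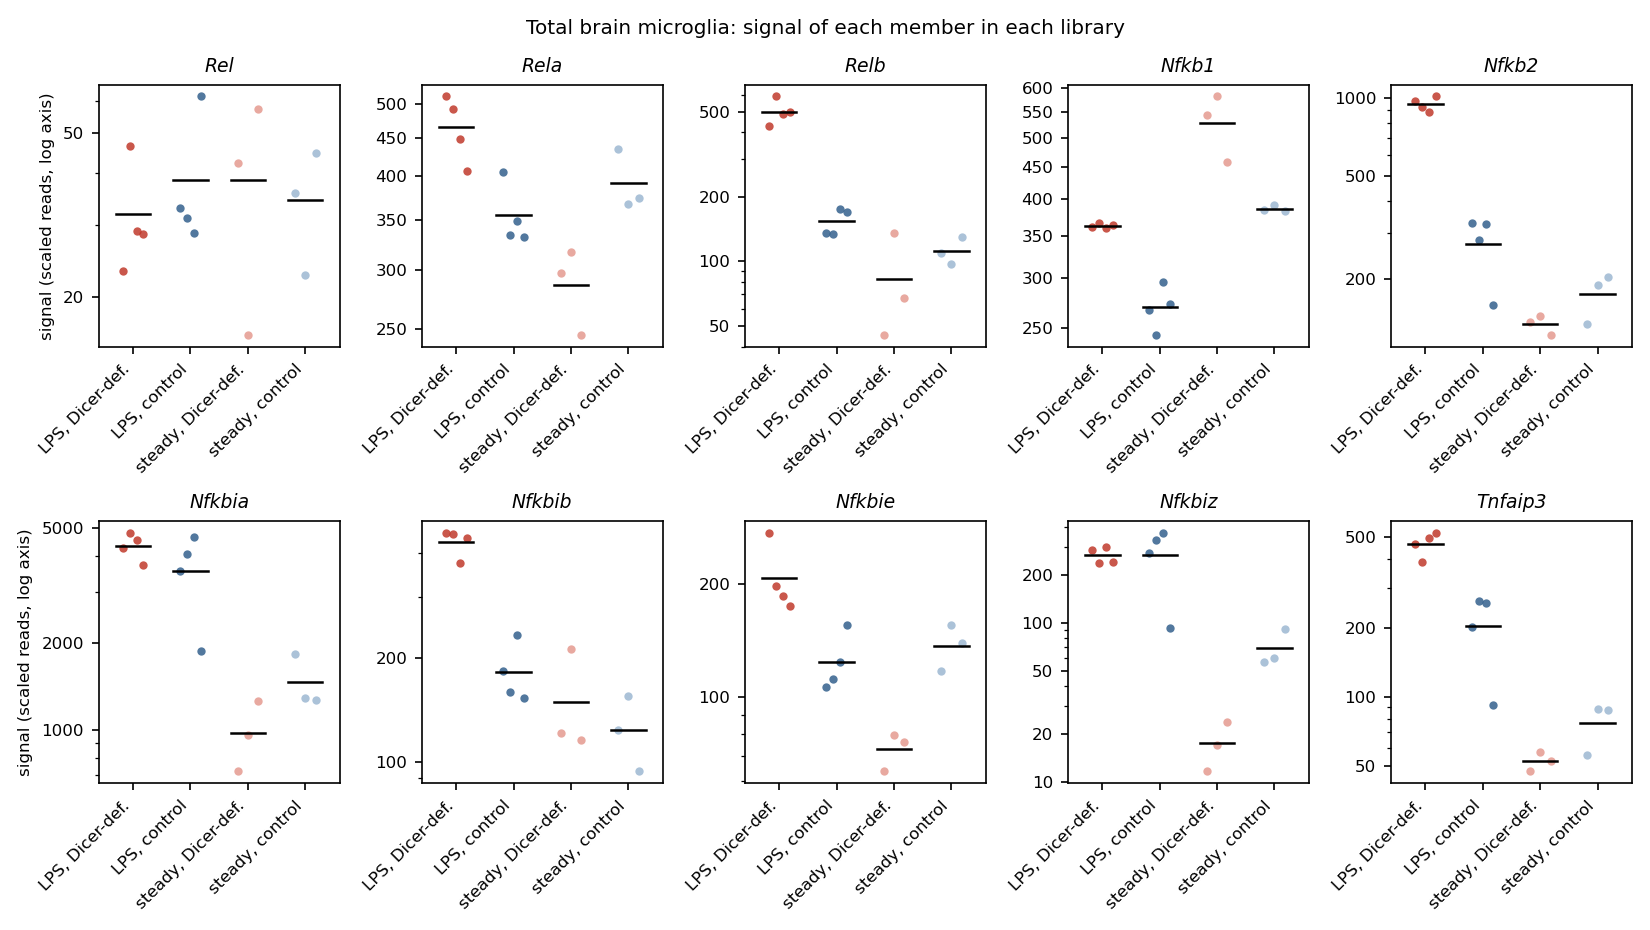
Signal of the 10 members in each total brain library (points, log axis that differs between panels; bars are group means) for LPS-treated Dicer-deficient, LPS-treated control, steady-state Dicer-deficient and steady-state control microglia. Nfkb2 in the LPS-treated Dicer-deficient libraries, 884 to 1014, lies above all others, and in several panels control replicate 33 lies apart from the other LPS-treated controls.

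Of the other inhibitors, Nfkbia encodes IkB-alpha, the classical inhibitor that NF-kB itself re-induces. It had 4261, 4824, 4576 and 3723 after LPS in Dicer-deficient libraries, against 3571, 4091, 4659 and 1873 in controls. Steady-state values were 717, 961 and 1258 in Dicer-deficient libraries and 1829.6, 1289 and 1274 in controls. LPS-treated libraries of both genotypes lay above all steady-state ones. Nfkbia rose by 2.18 ± 0.28 in Dicer-deficient microglia and by 1.22 ± 0.28 in controls (limma, adjusted p = 3.7e-05 and 0.00899), and the interaction of 0.96 ± 0.39 did not pass (adjusted p = 0.427). Without control replicate 33 the interaction was 0.68 (adjusted p = 0.364).

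Nfkbiz encodes IkB-zeta, a nuclear, inducible regulator of secondary response genes. After LPS it had 287, 237, 299 and 241 in Dicer-deficient libraries and 277, 330.3, 368 and 93.1 in controls. At steady state it had 11.6, 16.9 and 23.8 in Dicer-deficient libraries and 56.7, 59.7 and 91.9 in controls. The LPS-treated genotypes overlapped, while at steady state every Dicer-deficient library was below every control. The rise after LPS was 3.90 ± 0.37 in Dicer-deficient microglia and 1.79 ± 0.37 in controls (limma, adjusted p = 3.09e-06 and 0.00561). The interaction of 2.11 ± 0.52 did not pass (adjusted p = 0.11), but it was 1.67 and did pass without control replicate 33 (limma, adjusted p = 0.0326).

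Tnfaip3 encodes a ubiquitin-editing enzyme that shuts off signalling upstream of the IkB kinases. It had 465, 388, 497 and 521 after LPS in Dicer-deficient libraries and 201, 263, 257 and 92.1 in controls. At steady state it had 47.2, 57.6 and 52.4 in Dicer-deficient libraries and 55.8, 88.3 and 87.3 in controls. LPS-treated libraries were above steady-state ones in both genotypes, control replicate 33 by a small margin. It rose by 3.13 ± 0.29 in Dicer-deficient microglia and by 1.31 ± 0.29 in controls (limma, adjusted p = 2.7e-06 and 0.00818). The rise in controls did not pass without steady-state control replicate 7 (1.09, adjusted p = 0.052). The interaction was 1.82 ± 0.41 (adjusted p = 0.0746), and 1.48 without control replicate 33 (limma, adjusted p = 0.018).

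Nfkbib encodes IkB-beta, a further cytoplasmic inhibitor. It had 457, 453, 374 and 442 after LPS in Dicer-deficient libraries and 184, 159, 233 and 154 in controls. Its steady-state range was 116 to 212 in Dicer-deficient and 94.2 to 155 in control libraries. It rose by 1.57 ± 0.23 in Dicer-deficient microglia (limma, adjusted p = 0.000117). The value in controls was 0.56 ± 0.23 (adjusted p = 0.118) and the interaction 1.01 ± 0.33 (adjusted p = 0.263).

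Of the remaining subunits, Nfkb1, the precursor of the subunit that pairs with the Rela product, was the member that fell after LPS in both genotypes. It had 361, 367, 359.5 and 364 after LPS in Dicer-deficient libraries and 267, 244, 296 and 273 in controls. At steady state it had 543, 581 and 458 in Dicer-deficient libraries and 385, 391 and 383 in controls. No LPS-treated library of a genotype reached its steady-state range, as for 32.4% of all genes tested in Dicer-deficient and 21.2% in control microglia, which did not overlap either. Nfkb1 fell by 0.53 ± 0.15 in Dicer-deficient microglia (limma, adjusted p = 0.0129) and by 0.52 ± 0.15 in controls (adjusted p = 0.0261), with an interaction of -0.01 ± 0.21 (adjusted p = 0.993). The call in Dicer-deficient microglia was lost without steady-state replicate 5, and that in controls with edgeR and without LPS-treated replicate 31 or any of the 3 steady-state replicates. Rela, the main transactivating subunit, had 407 to 511 after LPS in Dicer-deficient libraries and 332 to 406 in controls, and at steady state 246 to 317 in Dicer-deficient libraries and 367 to 435 in controls. The genotypes thus lay in opposite order before and after LPS, without overlap. Of all genes tested, 22.8% did not overlap between genotypes at steady state and 15% after LPS. Rela rose by 0.70 ± 0.16 in Dicer-deficient microglia (limma, adjusted p = 0.00376), its value in controls being -0.14 ± 0.16 (adjusted p = 0.599). Neither genotype difference of Rela passed with limma. Its interaction did not pass either, at 0.74 to 0.92 over the 14 fits that left out 1 library. Rel, the hematopoietic subunit, was read at 16.2 to 61.4 over the whole table, overlapping in all groups, with LPS values of -0.15 ± 0.42 in Dicer-deficient microglia and 0.14 ± 0.42 in controls that did not pass (limma, adjusted p = 0.833 and 0.855).

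**Figure D2:**
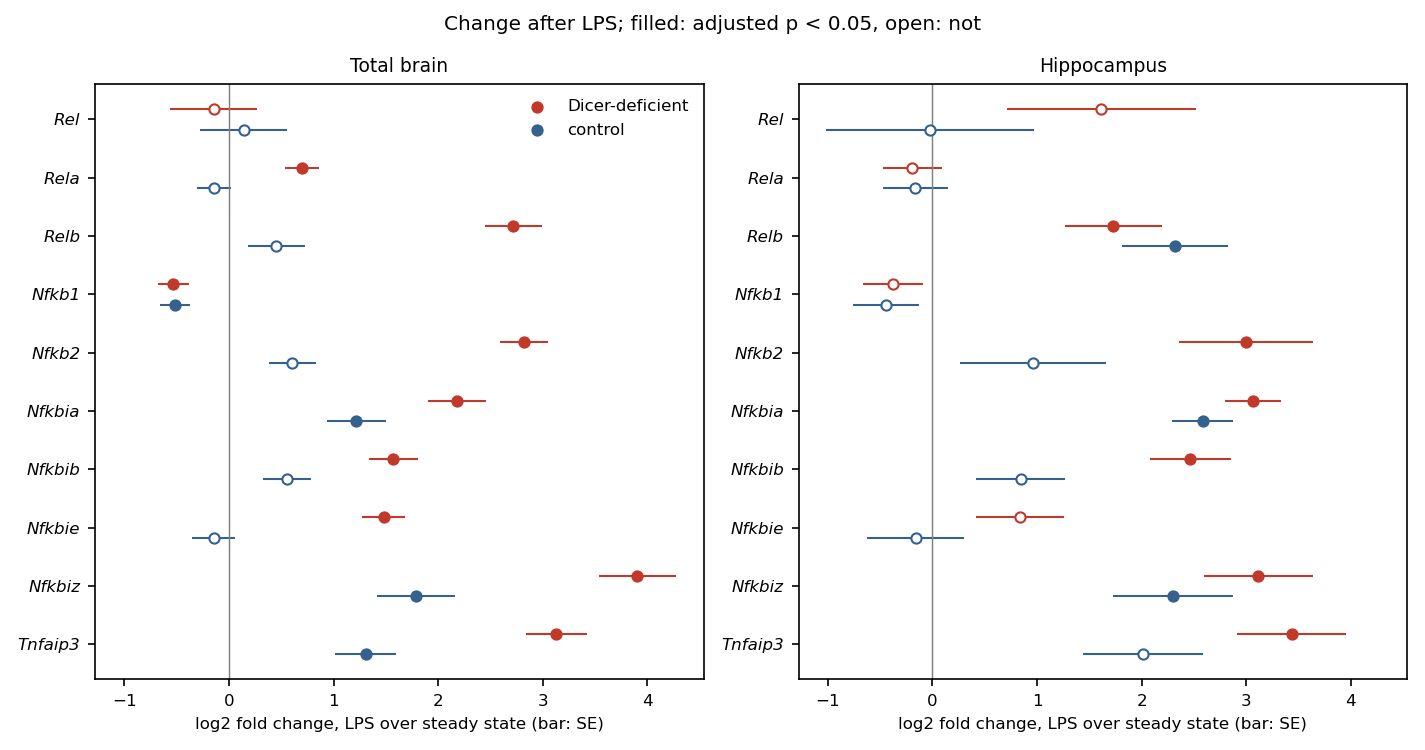
Log2 fold change after LPS (points; bars are SE; filled where the adjusted p is under 0.05) of each member in Dicer-deficient and control microglia of total brain, left, and hippocampus, right. In total brain Nfkb2 is at 2.82 in Dicer-deficient and 0.61 in control microglia, and Nfkb1 is at -0.53 in Dicer-deficient and -0.52 in control microglia.

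Comparing genotypes within the LPS-treated total brain, 5 of 10 members were higher in Dicer-deficient microglia and none was lower, where 9.4% of all 12937 genes tested were called. These were Nfkb2 (1.85 ± 0.21), Relb (1.70 ± 0.25), Tnfaip3 (1.30 ± 0.27), Nfkbib (1.25 ± 0.21) and Nfkbie (0.73 ± 0.19). Their limma adjusted p was at most 0.0244. In linear terms the mean signal in Dicer-deficient microglia was 3.47 times that of controls for Nfkb2, 3.25 times for Relb, 2.37 times for Nfkbib, 2.3 times for Tnfaip3 and 1.67 times for Nfkbie. All of them but Nfkbie were called in each of the 8 fits that left out 1 library, and Nfkbie in 4, its call being lost without Dicer-deficient replicate 35 or 36 or control replicate 17 or 31. Without control replicate 33 the 5 remained called, with Nfkb2 at 1.60, Tnfaip3 at 0.96 and Nfkbie at 0.84. Markers of monocytes and neutrophils summed to 639 to 3641 in the LPS-treated Dicer-deficient libraries and 137 to 3839 in the LPS-treated controls, the highest control being replicate 33, with 22.3 to 390 in steady-state Dicer-deficient and 14.9 to 43.6 in steady-state control libraries. Of these 12 markers, 4 were higher and none was lower in Dicer-deficient microglia between the LPS-treated genotypes. After LPS 10 rose and none fell in Dicer-deficient microglia, and 8 rose and 1 fell in controls. Erythroid markers summed to 2953 to 6961 in LPS-treated Dicer-deficient and 300.3 to 12706 in LPS-treated control libraries, with 5 of 6 rising after LPS in Dicer-deficient microglia and none in controls. Astrocyte markers summed to 1102 to 2045 in LPS-treated Dicer-deficient and 602 to 868 in LPS-treated control libraries. The list did not move as a whole: of 3 astrocyte markers tested between these genotypes 1 was higher and none was lower, with a median log2 difference of -0.59. Of 12 immediate early genes, 6 rose after LPS in Dicer-deficient and 3 in control microglia, and none fell. The part of these cells and genes in the member results was not tested.

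At steady state the genotypes differed in Nfkbiz and Nfkbie in total brain and in Nfkbiz and Nfkb1 in untreated adults. In total brain 2 of 10 fell in Dicer-deficient microglia and none rose, where 2.18% of all genes were called: Nfkbiz (-1.95 ± 0.40; limma, adjusted p = 0.0136) and Nfkbie (-0.90 ± 0.22; limma, adjusted p = 0.0435). The Nfkbie call was lost with edgeR and in each of 6 fits that left out 1 library, and that of Nfkbiz without Dicer-deficient replicate 5 or control replicate 9. In untreated adults, a separate table, 2 of 10 were called, where 5.15% of 11045 genes were. The Y-linked Ddx3y was uneven there, at 57.0, 1297 and 983 in Dicer-deficient replicates 1 to 3. In control replicates 1 to 4 it was 896, 39.9, 16.1 and 46.2. The part of this difference in the 2 calls was not tested. Nfkbiz had 64.8, 73.4 and 69.5 in Dicer-deficient libraries and 178, 156, 145 and 169 in controls, without overlap, as for 16.5% of all genes tested. It was lower by 1.21 ± 0.29 on the log2 scale in Dicer-deficient microglia (limma, adjusted p = 0.0199). That call was lost without Dicer-deficient replicate 1, control replicate 1 or control replicate 4, the log2 difference then being -1.17, -1.17 and -1.19. Nfkb1 had 1311, 1220.1 and 1103 in Dicer-deficient libraries and 757, 1001, 757 and 765 in controls, and was higher by 0.57 ± 0.16 in Dicer-deficient microglia (limma, adjusted p = 0.045), a call lost with edgeR (0.52) and kept in 2 of 7 fits that left out 1 library, those without Dicer-deficient replicate 3 or control replicate 2. The other 8 members ranged from -0.43 to 1.30 in these adults. The upper end was Nfkbib, which had 0 to 6 reads per library in that table.

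Immediate early genes, which cell isolation is known to induce, moved in the same direction as Nfkbiz in both tables. Of 12 such genes, 7 fell in Dicer-deficient microglia of untreated adults and 4 in those of steady-state total brain, and none rose in either. Their summed signal was 32229 to 35737 in Dicer-deficient and 47393 to 68081 in control adults, and 4811 to 9689 in Dicer-deficient and 8734 to 17569.8 in control total brain. Their part in the Nfkbiz result was not tested. After LPS in total brain, where the genotype difference of Nfkbiz did not pass (0.16 ± 0.34, adjusted p = 0.828), 1 of the 12 fell and none rose.

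Nfkb1 was higher on average in Dicer-deficient than in control microglia in all 6 genotype comparisons, no library of which enters more than 1 of them. The log2 difference was 0.57 in untreated adults, 0.44 and 0.43 in total brain at steady state and after LPS, 0.46 and 0.52 in hippocampus at steady state and after LPS, and 0.34 in newborns. The libraries of the genotypes did not overlap in the first 5 of these. In the same order, 16.5%, 22.8%, 15%, 24.2% and 38.4% of all genes tested did not overlap either. Only the difference in untreated adults passed the test with limma (DESeq2 also called both in total brain), and the standard errors of the others were 0.14 to 0.32.

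**Figure D3:**
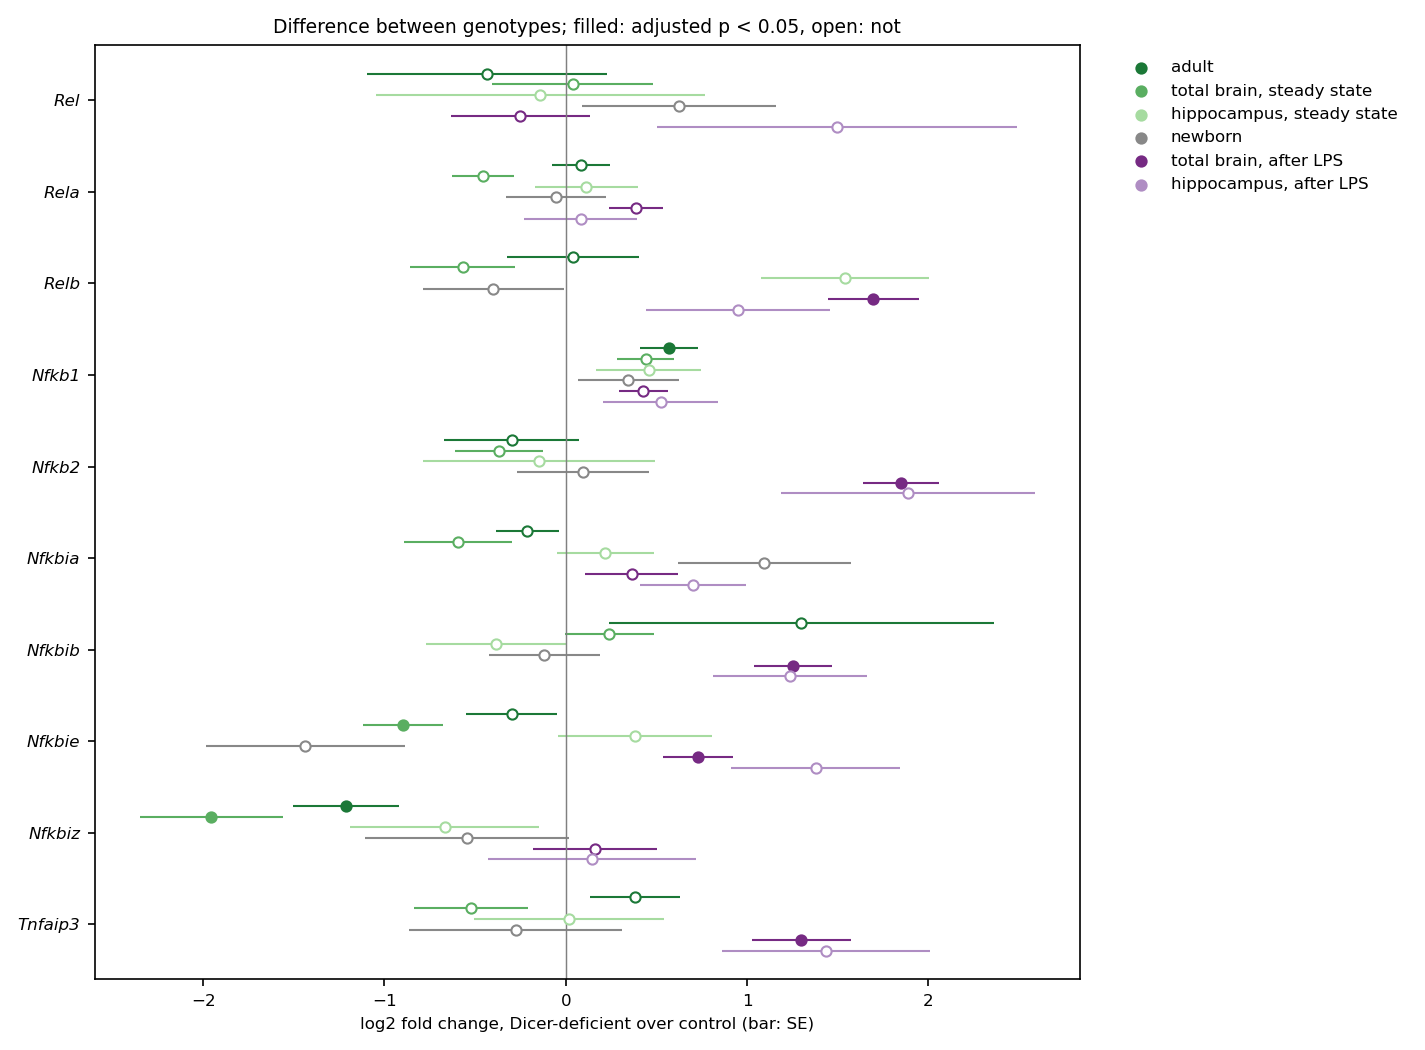
Log2 difference of Dicer-deficient over control microglia (points; bars are SE; filled where the adjusted p is under 0.05) for each member in the 6 genotype comparisons. Nfkb1 lies between 0.34 and 0.57 in all 6, Nfkbiz is lowest at steady state in total brain (-1.95), and Nfkb2 is at 1.85 and 1.89 after LPS in total brain and hippocampus.

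In hippocampus each group held 2 or 3 libraries. LPS raised 6 of 10 members in Dicer-deficient microglia, where 8.47% of 12366 genes were called. It raised 3 of 10 in controls, where 5.23% were called, and none fell in either. LPS-treated and steady-state libraries did not overlap for 8 members in Dicer-deficient and 6 in control microglia, beside 35.4% and 48.6% of all genes tested. Nfkbia had 6061 and 5532 after LPS in Dicer-deficient libraries and 4174 and 3027 in controls. At steady state it had 668, 674 and 729 in Dicer-deficient libraries and 825 and 426 in controls, so that all LPS-treated libraries were above the rest. It rose by 3.07 ± 0.27 in Dicer-deficient microglia and by 2.58 ± 0.29 in controls (limma, adjusted p = 4.68e-05 and 0.000415), calls that no left-out library ended.

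Nfkb2 had 977 and 839 after LPS in hippocampal Dicer-deficient libraries and 159 and 374 in controls. At steady state it had 60.2, 158 and 149 in Dicer-deficient libraries and 53.5 and 289.6 in controls. The LPS-treated Dicer-deficient libraries were above all others, and those of the control overlapped its steady state. It rose by 3.00 ± 0.64 in Dicer-deficient microglia (limma, adjusted p = 0.0127, lost without either LPS-treated Dicer-deficient library), with 0.96 ± 0.70 in controls (adjusted p = 0.543). Tnfaip3 had 916 and 619 after LPS in Dicer-deficient libraries and 272 and 283 in controls, and rose by 3.43 ± 0.52 in Dicer-deficient microglia (limma, adjusted p = 0.00178), with 2.02 ± 0.57 in controls (adjusted p = 0.0665). Nfkbib rose by 2.46 ± 0.39 in Dicer-deficient microglia (limma, adjusted p = 0.00216), with 0.84 ± 0.42 in controls (adjusted p = 0.335).

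Nfkbiz rose after LPS in hippocampal microglia of both genotypes, by 3.11 ± 0.52 in Dicer-deficient and 2.30 ± 0.57 in control libraries (limma, adjusted p = 0.00314 and 0.0364), and so did Relb, by 1.73 ± 0.46 and 2.32 ± 0.51 (limma, adjusted p = 0.0384 and 0.0203). The call of Relb in controls was lost in each of 4 fits that left out 1 library and that of Nfkbiz in 3 of them, all but the one without steady-state replicate 1. The call of Relb in Dicer-deficient microglia was kept in 1 of 5, the one without steady-state replicate 4. Rel, Rela, Nfkb1 and Nfkbie did not pass in either genotype.

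The interaction called no member in hippocampus (limma; 2 genes in all, 0.0162%). At an unadjusted p under 0.05 it held 1, Nfkbib, and neither edgeR nor DESeq2 called any. Its estimates were 2.04 ± 0.95 for Nfkb2, -0.59 ± 0.69 for Relb and 1.00 ± 0.63 for Nfkbie, beside 2.22 ± 0.32, 2.26 ± 0.38 and 1.63 ± 0.29 in total brain. Those tables were scaled separately, and the difference between regions was not tested. Leaving out 1 library moved the hippocampal values to between 0.83 and 3.24 for Nfkb2 and -0.98 and -0.20 for Relb, with no call, and Nfkbie stayed above 0 without passing. Steady-state Relb was 184, 84.1 and 81.8 in Dicer-deficient and 32.9 and 40.7 in control hippocampus. After LPS it was 294 and 443 in Dicer-deficient and 142 and 245 in control hippocampus.

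Between genotypes in hippocampus limma called no member, either at steady state (0.17% of all genes called) or after LPS (0.307%). At an unadjusted p under 0.05 there was 1 at steady state, Relb (1.54 ± 0.46), which DESeq2 called and edgeR did not. After LPS there were 5, Nfkb2 (1.89), Tnfaip3 (1.44), Nfkbie (1.38), Nfkbib (1.24) and Nfkbia (0.70), all higher in Dicer-deficient microglia, and edgeR and DESeq2 called none. With 2 libraries a group after LPS, their libraries did not overlap, and neither did those of Rel, Relb and Nfkb1. With so few libraries, 38.4% of all genes tested did not overlap. Of 12 immediate early genes, 6 rose after LPS in Dicer-deficient and 4 in control hippocampus, and none fell. Monocyte and neutrophil markers summed to 301 to 315 in LPS-treated Dicer-deficient libraries, against 7609 to 7747 in steady-state ones, with 6 of 11 tested falling and 1 rising. Border macrophage markers summed to 1.39 to 20.2 in LPS-treated Dicer-deficient and 17.9 to 42.5 in LPS-treated control libraries, against 306 to 450.5 in steady-state Dicer-deficient and 296 to 477 in steady-state control libraries, with 4 of 8 falling after LPS in Dicer-deficient and 2 in control microglia. The part of these, and of the uneven Xist and Ddx3y of the hippocampal libraries, in the member results was not tested. Without control replicate 1, which had little Cx3cr1, the LPS effect in hippocampal controls still called Nfkbia (3.06) and Nfkbiz (2.97) and no longer Relb (2.17, adjusted p = 0.11). Nfkb2 was then at -0.25 and Tnfaip3 at 1.02 in controls, and their interactions at 3.24 and 2.41, none passing. At steady state the genotype difference of Relb was then 1.39 and that of Nfkb2 -1.36, neither passing. In these fits, as wherever a group of 2 loses a library, the lone library is assumed to vary like the other groups.

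In the control microglia of 3 stages, Nfkbia, Nfkbiz, Tnfaip3, Rela and Rel were higher at P0 than at E14, and Nfkbie, Relb and Nfkb1 higher in adults than at P0. At P0 relative to E14, 5 of 10 members rose and none fell, where 29.3% of 13666 genes were called. In adults relative to P0, 3 rose and 2 fell, where 49.1% of 13290 were called. In adults relative to E14, 5 rose and none fell, where 56.3% were called. The members' median log2 fold change was 0.47, 0.06 and 0.90 in these comparisons, beside -0.11, -0.08 and -0.13 over all genes. In the same order, libraries of the 2 stages did not overlap for 5, 2 and 6 members, beside 25.3%, 32.2% and 45.8% of all genes tested. The P0 libraries enter the first and second of these comparisons, and the adult libraries the second and the last.

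Nfkbiz stood highest at P0. It had 29.0, 50.4, 51.2 and 27.6 at E14, 93.0, 199, 484, 235 and 839.6 at P0, and 30.9, 33.3, 104.4, 56.9 and 45.4 in adults. All P0 libraries were above E14, while the highest adult library exceeded the lowest P0 library. It was higher at P0 than at E14 by 2.86 ± 0.45 (limma, adjusted p = 0.000114) and lower in adults than at P0 by 2.50 ± 0.42 (limma, adjusted p = 5.43e-05), and its adult against E14 value was 0.36 ± 0.45 (adjusted p = 0.519). Tnfaip3 had 39.1, 29.1, 28.5 and 29.4 at E14, 46.5, 101, 268, 68.4 and 455 at P0 and 41.6, 55.3, 75.1, 75.2 and 68.5 in adults. It was higher at P0 than at E14 by 2.04 ± 0.44 (limma, adjusted p = 0.00184). The adult value, lower than at P0 by 1.08 ± 0.42 (limma, adjusted p = 0.0361), lost its call with no filter on low values and in 4 of 10 fits that left out 1 library, those without P0 replicate 3 (-0.83) or 5 (-0.64) or adult replicate 1 or 2. Without adult replicates 2, 4 and 5, which had little Cx3cr1 (a choice made after seeing the data), it did not pass either (-1.22, adjusted p = 0.111), nor did Relb in adults against E14 (0.83, adjusted p = 0.0673), while the other 4 members called in each adult comparison remained called. Nfkbia had 147, 229.9, 209.6 and 163 at E14, 403, 592, 1462, 663 and 3006 at P0, and 619.5, 954, 875, 819.8 and 1065 in adults. Both later stages were above every E14 library, by 2.33 ± 0.38 at P0 and 2.20 ± 0.38 in adults (limma, adjusted p = 0.000152 and 4.48e-05), and the adult values lay within the range of P0.

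**Figure D4:**
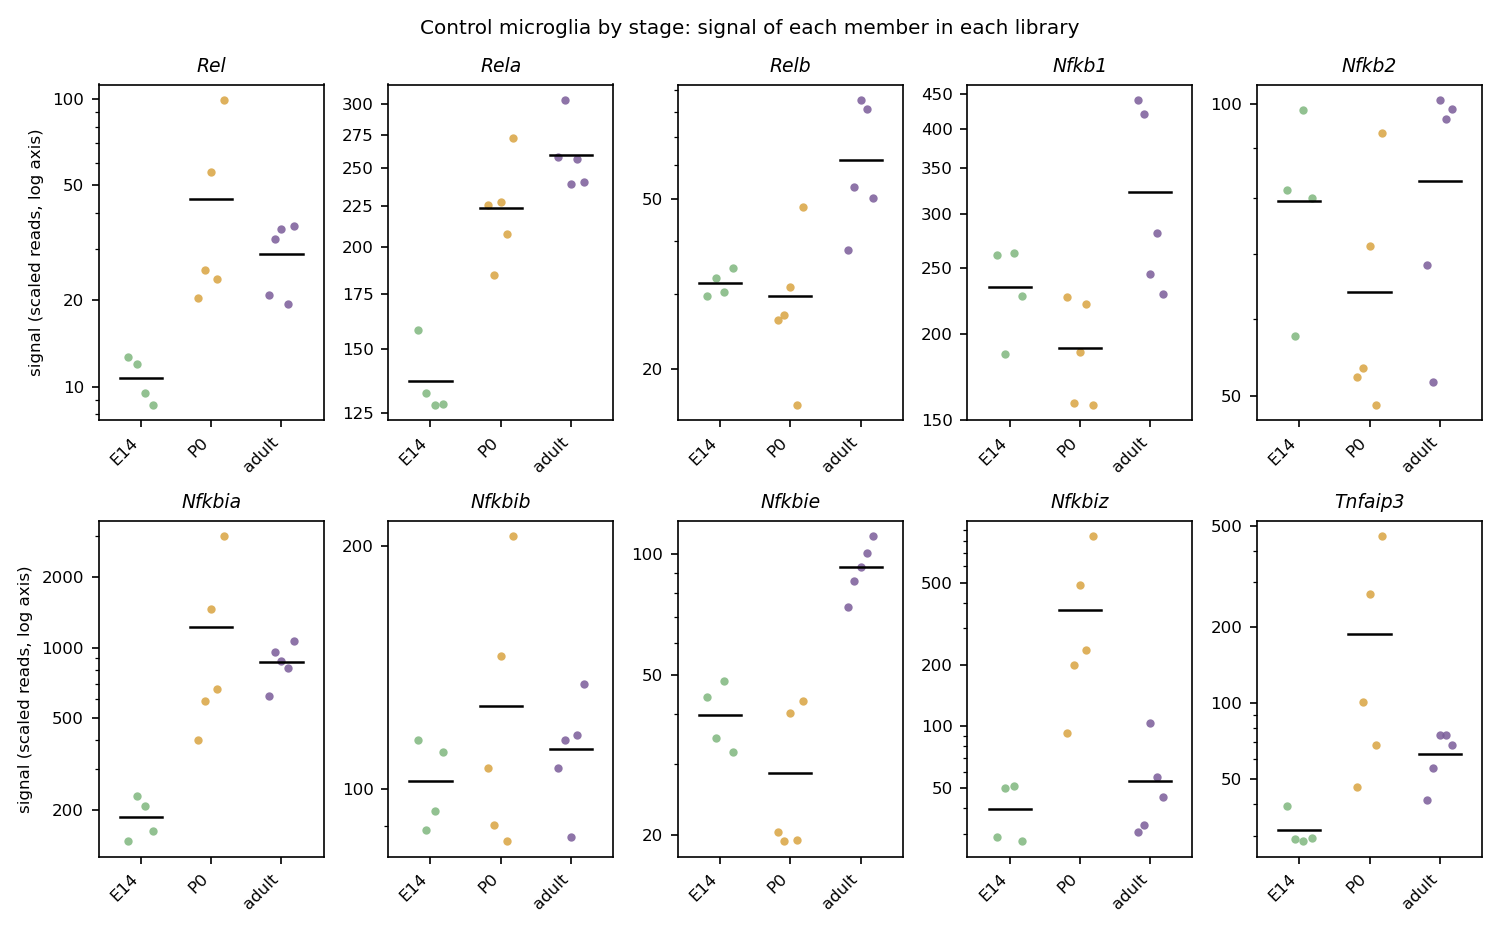
Signal of the 10 members in each control library (points, log axis that differs between panels; bars are group means) at E14, P0 and in adults. Nfkbiz is widest at P0, 93.0 to 839.6, and Nfkbie in adults, 73.9 to 111, lies above both earlier stages.

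The values at P0 ran with those of the immediate early genes, a list that shares no gene with the members. The summed signal of the 12 genes was 699 to 1575 at E14, 7569, 12467, 25428, 19932 and 32153 in P0 replicates 1 to 5, and 10194 to 25142 in adults. Replicates 5 and 3 had the highest sums and the highest Nfkbia, Nfkbiz, Tnfaip3 and Rel, and replicate 1 the lowest of each. Of the list, 10 of 12 rose between E14 and P0 and none fell, and in adults 11 of 12 were above E14. Erythroid markers were also highest at P0, with sums of 11507 to 47775, against 485 to 836 at E14 and 41.3 to 1790.4 in adults. Border macrophage markers summed to 493 to 767 at E14, 806 to 1109 at P0 and 21.1 to 81.3 in adults, with 7 of 8 lower in adults than at P0. Neuron markers summed to 147 to 459 at E14, 42.9 to 77.1 at P0 and 6.14 to 13.2 in adults, with 5 of 5 tested lower at P0 than at E14. E14 cells were sorted through another gate. The part of these in the stage results was not tested. Without P0 replicate 5 the P0 to E14 values were 2.46 for Nfkbiz, 1.91 for Nfkbia and 1.60 for Tnfaip3, all still called.

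**Figure D5:**
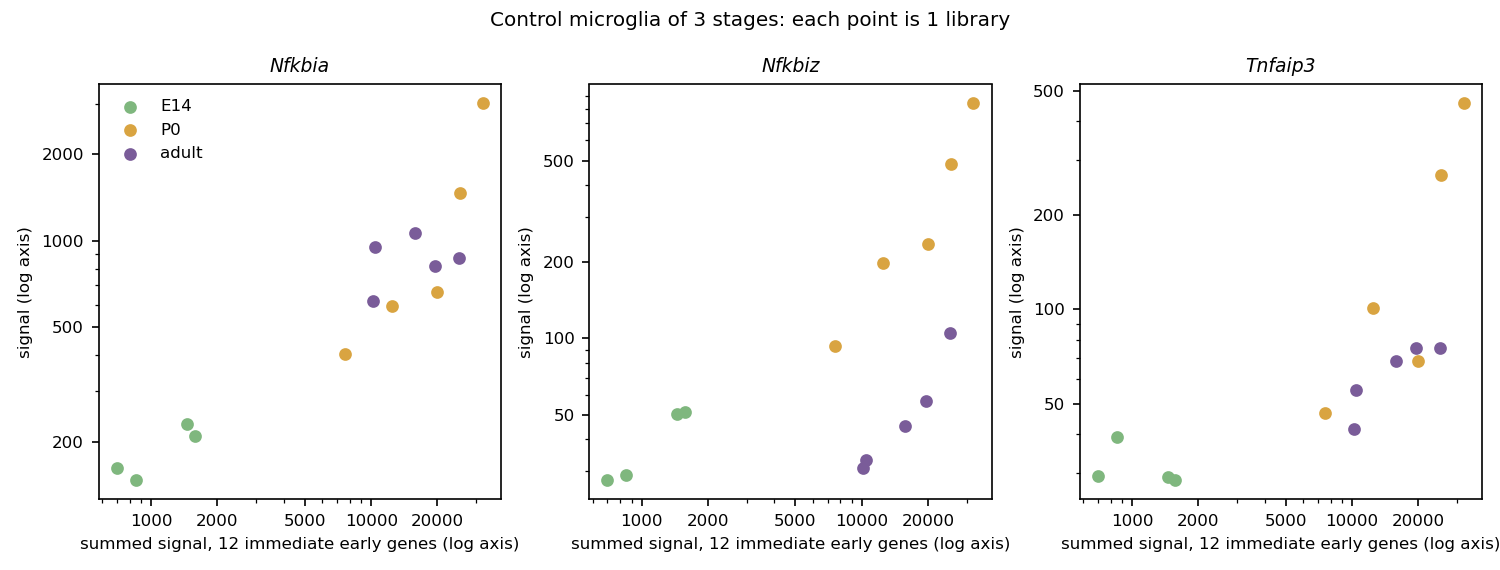
Signal of Nfkbia, Nfkbiz and Tnfaip3 (vertical, log axis) against the summed signal of 12 immediate early genes (horizontal, log axis) in each control library of E14, P0 and adult microglia. Within P0 the libraries with larger sums have the larger Nfkbia and Nfkbiz values, and the E14 libraries have the smallest sums.

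Of the subunits, Rela had 158, 133, 128.05 and 128.35 at E14, 225, 185, 227, 208 and 272 at P0, and 258, 304, 239, 257 and 241 in adults, so that no E14 library reached the later stages. It rose by 0.70 ± 0.13 at P0 and was 0.92 ± 0.13 above E14 in adults (limma, adjusted p = 0.000491 and 3.9e-06). Rel had 8.63 to 12.6 at E14, 20.4 to 99.3 at P0 and 19.3 to 36.3 in adults, and rose by 1.72 ± 0.37 at P0 (limma, adjusted p = 0.00172). Nfkbie was highest in adults: 32.2 to 48.4 at E14, 19.3 to 43.2 at P0 and 73.9 to 111 in adults, 1.75 ± 0.23 above P0 (limma, adjusted p = 2.38e-06). Relb had 29.7 to 34.5 at E14, 16.5 to 47.9 at P0 and 38.05 to 85.4 in adults, 1.05 ± 0.25 above P0 (limma, adjusted p = 0.00164). Nfkb1 was 0.72 ± 0.18 higher in adults than at P0 (limma, adjusted p = 0.00206), with adult replicates 1 and 2 at 440.8 and 420.2 and the other 3 at 229 to 281. Nfkb2 and Nfkbib overlapped between all stages and passed in no stage comparison.

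In newborns limma called no member between genotypes, where 1.48% of 13064 genes were called, and neither edgeR nor DESeq2 called any. At an unadjusted p under 0.05 there were 2. Nfkbia had 1391 and 1627 in Dicer-deficient libraries and 403, 592 and 1462 in their 3 controls (1.09 ± 0.48, adjusted p = 0.227). Nfkbie had 5.20 and 14.05 in Dicer-deficient libraries, from only 2 and 12 reads, and 20.4, 19.3 and 40.3 in controls. Its difference was -1.44 ± 0.55 (limma, adjusted p = 0.185), without overlap, as for 37.9% of all genes tested. These values rest on single libraries: with 1 left out, Nfkbie ranged from -2.08 to -0.80, and the genes called in all from 0, without control replicate 2, to 4716 of 12672, without Dicer-deficient replicate 2. In the fit without that library Nfkbie was at -2.08 and Rel at 1.32. Both rest on replicate 1 alone, the one with little Cx3cr1 and 2 reads of Nfkbie. Without replicate 1 Nfkbie was at -0.80. Summed immediate early signal was 26066 and 23066 in these Dicer-deficient libraries, and its part in the Nfkbia values was not tested.

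Around the members, most textbook targets of the pathway rose with LPS. In total brain 27 of 28 target genes rose in Dicer-deficient and 19 of 28 in control microglia, with none falling. Of all genes, 24.9% were called in Dicer-deficient and 14.1% in control microglia. The cytokine Il1b was at 6.26 and 3.75 and the iron-binding Lcn2 at 7.08 and 6.52 on the log2 scale in Dicer-deficient and control microglia. Of 14 other inhibitors and feedback genes 8 rose in Dicer-deficient and 5 in control microglia, the IkB-like Bcl3 by 5.49 and 3.19. Of 15 kinases and kinase-binding proteins 2 rose and 2 fell in Dicer-deficient microglia, and 2 rose and 1 fell in controls. The IkB kinase relative Ikbke rose by 6.41 and 3.40, and the kinase-binding Tab2 was at -0.56 and -0.69. Of 20 adaptors and ubiquitin ligases 5 rose and 1 fell in Dicer-deficient and 2 rose in control microglia, the receptor Cd40 by 6.55 and 3.25. The interaction called 2 genes of these lists, the Tnfaip3 partner Tnip1 (1.43) and the adhesion molecule Icam1 (1.27), both larger in Dicer-deficient microglia (limma, adjusted p = 0.0155 and 0.0369). Between the LPS-treated genotypes 6 of 28 targets, 5 of 14 inhibitors and 3 of 20 adaptors and ubiquitin ligases were higher in Dicer-deficient microglia. So was 1 of the 15 kinases and kinase-binding proteins. Peli1 (-0.79), of the adaptors and ubiquitin ligases, and the kinase subunit Ikbkg (-0.83) were lower. Of all 12937 genes tested there, 9.4% were called, 509 higher and 707 lower.

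In hippocampus 19 of 28 targets rose after LPS in Dicer-deficient and 13 in control microglia, and 5 and 1 of the 14 inhibitors, Bcl3 by 5.02 and 3.64. Of all genes tested there, 8.47% were called in Dicer-deficient and 5.23% in control microglia. At steady state 3 of 28 targets fell in Dicer-deficient total brain, where 2.18% of all genes were called. They were Cd83 (-1.78), Ccl3 (-1.77) and Junb (-1.26). In untreated adults 4 of 25 fell, among them Ccl3 (-2.31), Cd83 (-1.84) and Ccl4 (-1.70), where 5.15% of all genes were called. No target rose in either. Junb is also 1 of the 12 immediate early genes, of which 4 fell in Dicer-deficient total brain and 7 in untreated adults. The part of cell isolation in these target values was not tested. In Dicer-deficient newborns 3 of 25 targets rose, Ier3 (2.11), Ccl2 (1.87) and Gadd45b (1.47), where 1.48% of all genes were called. In Dicer-deficient hippocampus at steady state 1 of 28 rose, Lcn2 (3.63), where 0.17% were called, and none fell in either. Those hippocampal libraries had monocyte and neutrophil marker sums of 7609 to 7747, against 521 to 2501 in their controls. The part of such cells in the Lcn2 value was not tested. By stage, of 27 targets 10 rose and 5 fell at P0 relative to E14, where 29.3% of all genes were called. In adults relative to P0, 49.1% of 13290 genes were called, of which 2968 rose and 3561 fell. There 7 of 27 targets rose and 11 fell. Of 19 adaptors 10 were called, a share near that of all genes called, but all 10 rose.

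Over the 14 total brain libraries the gene whose log2 signal followed that of a member most closely, among 6711 others at or above the median level, was Mapkapk2 for Nfkb2 (Pearson r = 0.983), Hivep2 for Relb (0.949), Pim1 for Nfkbia (0.970), Mt1 for Tnfaip3 (0.987), Zfand3 for Nfkbib (0.972) and Tnip1 for Nfkbie (0.912). Among the members themselves Nfkb2 and Tnfaip3 went together most closely (r = 0.958), followed by Nfkbia and Nfkbiz (0.953), while Nfkb1 ran against Nfkbiz (-0.81). These values describe 14 libraries of 4 groups, which share the effect of LPS and their scaling, and no test was made of them.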

How the data were processed

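Sorted microglia were profiled by RNA-seq in 46 libraries, in 4 tables. Per the submitters' processing notes, bcl2fastq, HISAT 0.1.5, SAMtools, HOMER and DESeq2 were used with the mm9 build, in no stated order, and per the labels' protocols RNA was captured with oligo-dT beads. The authors deposited signal values, that is, read counts scaled by 1 factor per library and separately for each table. Tables were therefore not tested against each other. Dividing by the value of 1 read gave whole numbers within 0.1 read for at least 99.6% of values in every library. For 9 libraries that value was found from the spacing of the values, since they had no gene at 1 read or a step close to 1.

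From the deposited signal, limma 3.58.1 (R 4.3.3, variance trend) was fitted on log2(value + 1) to genes that reached 1 in at least the number of libraries that the smaller or smallest group holds. There was 1 fit per table, with the newborn genotypes fitted on their own 5 libraries. Calls have a Benjamini-Hochberg adjusted p under 0.05 over all genes tested. Fold changes on this scale understate those of genes with low signal. Alternatives were pseudocounts of 0.1 and 5, no filter, edgeR 4.0.16 and DESeq2 1.42.0 on the recovered counts, each library left out, the replicate number as a block, and all 5 P0 controls; leaving out 3 adult stage libraries with little Cx3cr1 was added after seeing the data. The scripts were tested on simulated data with planted changes.

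All 10 members passed the filter and were tested in every comparison, but not every value is printed. Of each list of pathway genes (kinases and kinase-binding proteins, adaptors and ubiquitin ligases, other inhibitors, targets) at most the 3 called genes with the smallest p were named, and of genes with like patterns the 3 most correlated were sought. The members and lists were chosen with earlier results of these data known. Promoter sequences are from RefSeq (GRCm38.p6), a later build than the deposited values, and were matched by symbol. Coordinates and sequences of the mm9 build were not used here. Depth was 898451 to 1991621 reads per library in untreated adults, 2244169 to 4573063 in total brain, 1817611 to 4143142 in hippocampus and 992317 to 3460338 in the stage table. The replicate numbers of the labels were not used as pairs in the main fits.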

Additional observations from a re-analysis of the deposited data

Results flagged for a closer look

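The LPS effect differed between genotypes in total brain for Relb by 2.26, Nfkb2 by 2.22 and Nfkbie by 1.63 on the log2 scale, each larger in Dicer-deficient than in control microglia by the interaction test of limma (adjusted p = 0.0155, 0.00487 and 0.0277). All 3 had lower mean signal in Dicer-deficient than in control microglia at steady state, a difference that passed the test for Nfkbie only, and higher mean signal after LPS.

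Of 60 groups of member values examined, 4 held a library far from the rest of its group, where chance flags about 1 in 20. Nfkb1 was 1001 in untreated adult control replicate 2, against 757 to 765 in the other 3. Rel was 61.4 in LPS-treated total brain control replicate 33, against 28.7 to 33 in the others. At E14, replicate 1 had Rela at 158.5 and Tnfaip3 at 39.1, against up to 133 and 29.4 in the other 3.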

How the results depend on the processing

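No member that passed changed its direction under any alternative run. Counts of members called differed from those given as follows, beside the left-out libraries and the block below. In untreated adults 1 of 2 passed with a pseudocount of 0.1 and 1 with edgeR (Nfkbiz in both). In steady-state total brain 1 passed with edgeR (Nfkbiz) and 3 with DESeq2 instead of 2. DESeq2 called 7 members between LPS-treated genotypes instead of 5. For LPS in controls edgeR called 3 and DESeq2 5 instead of 4, and in hippocampal controls DESeq2 called 4 instead of 3. For adults against P0 no filter left 4 instead of 5, and for adults against E14 edgeR and DESeq2 called 6 instead of 5. Without adult replicates 2, 4 and 5, an alternative chosen after seeing the data, 4 passed in each of these. The total brain interaction held 6 members with DESeq2 instead of 3, and the hippocampal genotype comparison at steady state held 1 with DESeq2 (Relb) instead of 0. In hippocampal controls 2 passed with a pseudocount of 0.1, as Nfkbiz did not (2.32, adjusted p = 0.0504).

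With each library left out in turn, the members called numbered 0 to 2 in untreated adults, 0 to 2 in steady-state total brain, 4 to 5 between LPS-treated genotypes, 2 to 5 for LPS in controls, 8 to 9 for LPS in Dicer-deficient microglia and 1 to 5 for the interaction. In hippocampus they numbered 0 for both genotype comparisons and for the interaction, 1 to 2 for LPS in controls and 4 to 6 for LPS in Dicer-deficient microglia. By stage they numbered 5 to 6 for P0 against E14, 4 to 5 for adults against P0 and 5 to 6 for adults against E14, and in newborns 0 to 2, the highest without Dicer-deficient replicate 2. The count of 1 for the interaction was Nfkb2, and without control replicate 33 there were 5, with 92 genes in all instead of 23. Without that library LPS called 3388 genes in controls instead of 1897, and without Dicer-deficient replicate 11b the steady-state genotypes differed in Relb (-0.99, adjusted p = 0.041) and Nfkbiz (-1.96).

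The replicate block was fitted where groups share replicate numbers. With it 0 members passed in untreated adults, where 371 genes did instead of 569, and 1 in newborns, Nfkbia (1.62, adjusted p = 0.0132), where 583 did instead of 194; it held 6 members for P0 against E14, 5 for adults against P0 and 6 for adults against E14. Same-numbered libraries deviated together with r of at most 0.0026 in untreated adults, 0.087 in newborns and 0.10 by stage. Differently numbered ones reached 0.025, 0.050 and 0.18. The 2 Dicer-deficient newborn libraries deviate from their mean as mirror images, so these values cannot decide whether the numbers pair the newborn samples. The main fits did not use the numbers as pairs. In total brain and hippocampus the numbers are not shared, and no block was fitted.

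Over all genes, DESeq2 called 562 in steady-state total brain instead of 292, 164 for the interaction instead of 23 (52 with a pseudocount of 5), 212 and 207 in hippocampus between genotypes at steady state and after LPS instead of 21 and 38 (at steady state also 45 with edgeR, 42 with a pseudocount of 5 and 8 with 0.1), 36 for its interaction instead of 2, 1087 for LPS in its controls instead of 647, and 569 in newborns instead of 194 (396 with edgeR, 108 with a pseudocount of 0.1, 1120 with all 5 controls). The share of calls that were higher was 55.2% instead of 36.6% in steady-state total brain with DESeq2, 63.4% instead of 49.9% for LPS in controls with edgeR, 62.2% instead of 73.9% for the interaction with DESeq2, 61.3% instead of 90.5% and 63.8% instead of 52.6% in the hippocampal genotype comparisons with DESeq2, and 51.3% instead of 37.6% for P0 against E14 with edgeR. TMM scaling moved the median of all genes from -0.11 to 0 for P0 against E14 and from -0.13 to -0.01 for adults against E14. The causes were not tested. Depth limits Nfkbib in untreated adults (0 to 6 reads), Nfkbie in Dicer-deficient newborns (2 and 12 reads) and Rel (4 to 135 reads, median 34, the lowest median of the 10 members).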
